A study of Mus musculus with 12 samples.

Results

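The oligoadenylate synthetase family of the mouse, as measured here, comprised 8 genes: Oas1a, Oas1b, Oas1c, Oas1g, Oas2, Oas3, Oasl1 and Oasl2. They were listed by gene name with earlier results of these data known, and all 8 had a row among the 23185 genes tested. RNA came from CD4+ T cells of mouse spleen on 12 whole-transcript arrays, 3 for each of 4 groups. Cre+ cells (Lck-Cre+;Ikzf-/-) lack Ikaros, a zinc-finger DNA-binding protein of lymphocytes encoded by Ikzf1, by means of Cre made under the promoter of Lck, which is active in the T lineage, and Cre- cells (Lck-Cre-;Ikzf+/+) served as controls. The groups were Cre+ activated, Cre- activated, Cre+ baseline and Cre- baseline. Activated cells had spent 24 h with anti-CD3 fixed to the plate and anti-CD28 in solution, and baseline cells were left untreated (0 h). The sources used here state neither strain nor age. As no cells had Cre together with intact Ikaros, Cre and the deletion cannot be told apart, and no group was cultured for 24 h without antibodies, so culture and stimulation cannot be told apart.

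Oligoadenylate synthetases are cytosolic enzymes that are switched on by double-stranded RNA and join ATP into short 2-5A chains. These chains are second messengers of antiviral defence. The genes are induced by interferons through ISGF3, a complex with STAT2 and IRF9 that binds interferon-stimulated response elements. In the RefSeq gene order of GRCm38.p6, 10 family genes sit side by side on chromosome 5 as Oas2, Oas3, Oas1e, Oas1c, Oas1b, Oas1f, Oas1h, Oas1g, Oas1a and Oas1d, and Oasl2 and Oasl1 form a separate neighbouring pair on that chromosome. Because the Oas1 copies resemble each other, probes of one copy may also bind another, and the value of a single Oas1 copy is uncertain to that extent.

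All values are log2 expression as deposited, each difference is a difference of log2 levels, and a gene passed at a limma adjusted p under 0.05 over all 23185 genes. Counts at an unadjusted limma p under 0.05 are given without the share of all genes, so they are not compared with it. The array medians lay between 4.04 and 4.17, and whether dim genes were above background was not tested. Ikzf1 itself, whose deleted part the labels do not name and whose value therefore does not check the labels, differed by -0.13 (SE 0.13, limma adjusted p = 0.993) between Cre+ and Cre- activated cells and by -0.17 (SE 0.13, limma adjusted p = 0.968) at baseline. The activated arrays numbered 3 stood apart in both genotypes: 14 cell cycle genes averaged 8.89 on the Cre+ array and 9.27 on the Cre- array, against 6.71 to 7.41 on the other Cre+ and at most 6.76 on the other Cre- activated arrays. Values without both are given beside the results below. Sex-linked genes showed both sexes in every group, so each group held more than 1 animal. The labels do not say that all replicates were separate animals, and p-values measure the spread between arrays.

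Promoter windows from RefSeq (GRCm38.p6, 300 bases spanning the annotated start) were found for 6 of the 8 members, Oas1a, Oas1c, Oas1g, Oas3, Oasl1 and Oasl2; Oas1b and Oas2 are named only. The core of the interferon-stimulated response element, searched as GAAA, any 2 bases and GAAA on both strands with overlapping matches allowed, was present in 4 of the 6 windows (Oas1a, Oas1c, Oas1g and Oas3), against 3.45% of 32544 windows of the same length. Printed below are the windows of Oas1a (chr5:120907476-120907775, minus strand), Oas1c (chr5:120812465-120812764, minus strand), Oas3 (chr5:120777610-120777909, minus strand) and Oasl2 (chr5:114896684-114896983, plus strand). They are shown because the first 3 hold that core in different places and orientations while Oasl2, a gene that passed by genotype, does not hold those letters. Each reads 5′ to 3′ along its gene, and capitals mark the matches.
Oas1a: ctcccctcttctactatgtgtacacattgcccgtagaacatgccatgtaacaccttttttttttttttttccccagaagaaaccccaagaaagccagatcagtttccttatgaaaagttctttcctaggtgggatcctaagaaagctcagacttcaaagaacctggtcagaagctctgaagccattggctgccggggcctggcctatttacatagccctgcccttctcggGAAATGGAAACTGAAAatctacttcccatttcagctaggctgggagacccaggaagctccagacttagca
Oas1c: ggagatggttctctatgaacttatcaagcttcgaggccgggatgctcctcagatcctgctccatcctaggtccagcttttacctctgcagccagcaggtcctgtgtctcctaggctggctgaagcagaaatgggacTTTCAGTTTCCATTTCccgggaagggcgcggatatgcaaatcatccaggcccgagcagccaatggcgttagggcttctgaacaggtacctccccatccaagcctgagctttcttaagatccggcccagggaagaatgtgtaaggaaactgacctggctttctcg
Oas3: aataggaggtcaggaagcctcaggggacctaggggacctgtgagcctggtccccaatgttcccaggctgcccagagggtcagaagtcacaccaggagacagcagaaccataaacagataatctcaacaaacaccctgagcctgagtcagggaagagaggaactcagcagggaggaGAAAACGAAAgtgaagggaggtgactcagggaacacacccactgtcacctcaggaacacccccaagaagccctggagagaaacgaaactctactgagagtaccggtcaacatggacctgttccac
Oasl2: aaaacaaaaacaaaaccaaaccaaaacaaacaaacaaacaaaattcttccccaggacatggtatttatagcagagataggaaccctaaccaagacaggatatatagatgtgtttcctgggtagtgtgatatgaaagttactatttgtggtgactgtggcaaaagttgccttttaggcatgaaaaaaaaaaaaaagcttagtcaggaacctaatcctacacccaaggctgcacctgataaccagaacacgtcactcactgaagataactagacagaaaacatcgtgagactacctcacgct

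In the Oas1a window a pair of overlapping cores ran from base -20 to base -5 before the start. The Oas1g window was 88.8% identical to it over 294 aligned bases, with the same pair of cores from base -18 to base -3. In Oas1c the overlapping pair lay on the opposite strand, from base -114 to base -99, and Oas3 had a single core from base -75 to base -66. The gamma-activated sequence, searched as TTCNNNGAA on both strands, was present in the Oas1a window alone among the 6 (8.33% of all windows hold it). The letters TGGGAA, the core of Ikaros binding sites, were present in Oas1a, Oas1g and Oas3, 3 of 6 windows, against 25.4% of all windows. A match of letters describes the sequence and does not show that a protein binds there.

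The first question was whether loss of Ikaros changed the family in activated cells. Oas2 and Oasl2 were higher in Cre+ activated cells, each by more than 3-fold, and 6 members did not pass. Oas2, which encodes a synthetase built from repeated synthetase units, read 6.96, 6.52 and 6.11 on the Cre+ activated arrays and 4.80, 4.49 and 5.16 on the Cre- activated arrays. All Cre+ arrays lay above all Cre- arrays. The difference was 1.71 (SE 0.21, 95% interval 1.24 to 2.18), or 3.28-fold, at limma adjusted p = 0.00284. Oasl2, a mouse OAS-like gene with an added ubiquitin-like part, read 6.51, 6.19 and 6.51 on the Cre+ activated arrays, against 4.26, 4.06 and 5.67 on the Cre- activated arrays. The groups did not overlap, but Cre- array 3 stood well above the other Cre- arrays. The Oasl2 difference was 1.74 (SE 0.33, 95% interval 1.02 to 2.47), or 3.35-fold, at limma adjusted p = 0.0361.

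Of the 8 members, 2 passed, both higher, where 0.729% of all genes tested passed and 0.63% passed higher. The median difference of the 8 was 0.43, against -0.01 over all genes. Without the activated arrays numbered 3 the difference of Oas2 was 2.09 (limma adjusted p = 0.000372) and that of Oasl2 2.20 (limma adjusted p = 0.000333), so both passed with and without them. Oasl2 was close to the threshold: it did not pass when any 1 of the 12 arrays other than Cre- activated array 3 was left out, with differences of 1.44 to 1.85 in those fits, and without Cre- activated array 3 it was 2.25. When limma was fitted to nothing but the 6 activated arrays neither passed (adjusted p = 0.157 for Oas2 and 0.412 for Oasl2). In that fit only 9 of all genes tested passed, against 169 in the main fit.

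**Figure D1:**
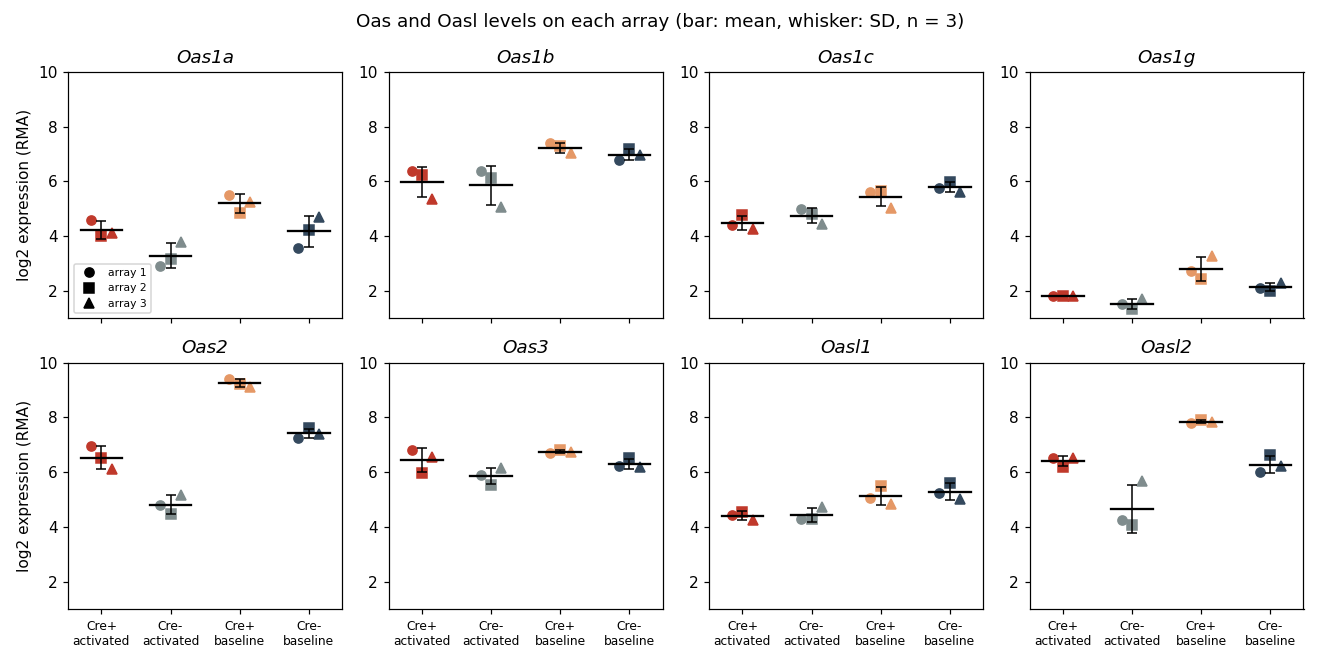
Log2 expression (vertical axis, RMA) of the 8 family genes on each of the 12 arrays, by group; symbols mark arrays 1 to 3, bars the mean and whiskers the SD (n = 3). Oas2 and Oasl2 lie higher on all Cre+ arrays than on all Cre- arrays of the same state, and Oasl2 on Cre- activated array 3 reads 5.67, above the other Cre- activated arrays.

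Oas1a, an active synthetase of a single unit, read 4.61, 4.00 and 4.10 on the Cre+ activated arrays and 2.91, 3.17 and 3.79 on the Cre- activated arrays. The groups did not overlap, and the difference was 0.95 (SE 0.30, limma adjusted p = 0.316), which did not pass. Oas1g, the copy next to Oas1a, read 1.82, 1.80 and 1.81 in Cre+ activated cells and 1.53, 1.36 and 1.71 in Cre- activated cells. These readings lay far below the array medians, and the difference of 0.28 (SE 0.18, limma adjusted p = 0.881) did not pass although the groups did not overlap. Oas3, the largest synthetase, read 6.82, 5.98 and 6.55 on the Cre+ activated arrays, against 5.91, 5.54 and 6.14 on the Cre- activated arrays. Here the groups overlapped, through Cre+ array 2, and the difference was 0.59 (SE 0.21, limma adjusted p = 0.400).

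The remaining 3 members showed smaller differences. Oas1b, the mouse gene behind inherited resistance to flaviviruses and a transcribed pseudogene in this RefSeq annotation, read 6.39, 6.22 and 5.37 in Cre+ activated cells and 6.38, 6.14 and 5.05 in Cre- activated cells. Array 3 was the lowest of both groups and the groups overlapped, with a difference of 0.14 (95% interval -0.58 to 0.85, limma adjusted p = 1.00). Oas1c read 4.40, 4.78 and 4.27 in Cre+ activated cells, against 4.996, 4.80 and 4.44 in Cre- activated cells, a difference of -0.26 (95% interval -0.70 to 0.18, limma adjusted p = 0.923) with overlapping groups. Oasl1, a mouse protein without synthetase activity that limits production of IRF7, read 4.42, 4.56 and 4.24 in Cre+ activated cells, against 4.29, 4.28 and 4.71 in Cre- activated cells. Its groups overlapped and its difference was -0.02 (95% interval -0.45 to 0.41, limma adjusted p = 1.00). In all, 4 members had non-overlapping groups with Cre+ above, a pattern found in 5.25% of all genes tested.

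In resting cells the same comparison gave a similar order of members. Oas2 was higher in Cre+ baseline cells, and Oasl2 was next without passing. Oas2 read 9.41, 9.21 and 9.12 on the Cre+ baseline arrays and 7.26, 7.60 and 7.39 on the Cre- baseline arrays. The groups lay far apart, by 1.83 (SE 0.21, 95% interval 1.36 to 2.30), or 3.56-fold, at limma adjusted p = 0.00209. Oasl2 read 7.79, 7.90 and 7.82 in Cre+ baseline cells, against 5.99, 6.61 and 6.22 in Cre- baseline cells. Again no arrays overlapped, and the difference of 1.56 (SE 0.33, 95% interval 0.84 to 2.29), or 2.95-fold, had a limma adjusted p = 0.0854. The spread of each gene is shared over all 12 arrays, and without Cre- activated array 3 alone the same difference passed at limma adjusted p = 0.000458, as it did when limma was fitted to nothing but the 6 baseline arrays (adjusted p = 0.00319).

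Thus 1 of 8 members passed at baseline, where 0.552% of all genes passed and 0.492% passed higher. Their median difference was 0.56, against 0.00 over all genes. The other members spread from -0.35 to 1.03. Oas1a read 5.52, 4.84 and 5.26 in Cre+ baseline cells, against 3.58, 4.23 and 4.71 in Cre- baseline cells, which is 1.03 higher (SE 0.30, limma adjusted p = 0.303). Oas1g read 2.71, 2.43 and 3.27 in Cre+ baseline cells, against 2.11, 2.00 and 2.28 in Cre- baseline cells, which is 0.68 higher (SE 0.18, limma adjusted p = 0.229). Both had Cre+ arrays above all Cre- arrays without passing. Oas3 read 6.70, 6.80 and 6.72 in Cre+ baseline cells, against 6.21, 6.52 and 6.19 in Cre- baseline cells, also without overlap, at 0.43 (SE 0.21, limma adjusted p = 0.743). With Oas2 and Oasl2 this made 5 members whose Cre+ baseline arrays lay above all Cre- baseline arrays, a pattern of 8.82% of all genes.

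Oas1b, Oas1c and Oasl1 overlapped between genotypes at baseline too. Oas1b read 7.39, 7.28 and 7.02 in Cre+ baseline cells and 6.77, 7.17 and 6.96 in Cre- baseline cells (difference 0.26, 95% interval -0.46 to 0.98). Oas1c read 5.60, 5.67 and 5.03 in Cre+ baseline cells, against 5.78, 5.97 and 5.61 in Cre- baseline cells (difference -0.35, 95% interval -0.79 to 0.09). Oasl1 read 5.06, 5.49 and 4.84 in Cre+ baseline cells, against 5.23, 5.62 and 5.03 in Cre- baseline cells (difference -0.16, 95% interval -0.59 to 0.27). These intervals do not reach the differences measured for Oas2, which was 1.83. In gene order, Oas2 and Oas3 are neighbours, and neither overlapped between genotypes at baseline. Oas1c and Oas1b, which overlapped, lie between Oas3 and the pair of Oas1g and Oas1a, which did not. The size of the difference varied between neighbours, at 1.83 for Oas2 and 0.43 for Oas3. A link between gene order and the differences was not tested.

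**Figure D2:**
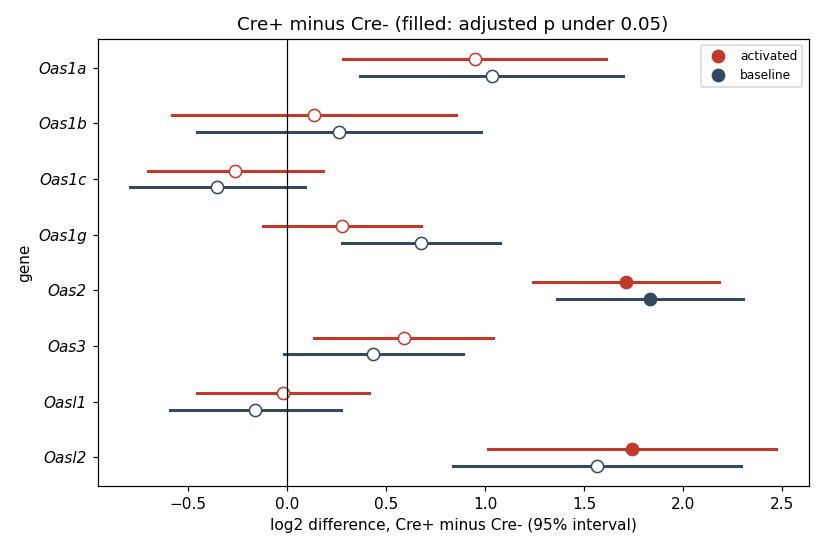
Log2 difference of Cre+ minus Cre- (horizontal axis, with 95% interval) for each of the 8 genes, in activated cells (red) and at baseline (dark blue); filled points passed at a limma adjusted p under 0.05. Oas2 is filled in both states at 1.71 and 1.83, Oasl2 in activated cells at 1.74, and Oas1b, Oas1c and Oasl1 straddle 0.

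Activation lowered most of the family in both genotypes. In Cre+ cells 7 of 8 members were lower after 24 h, where 20.7% of all genes passed and 10.6% passed lower, and the median of the 8 was -0.98. In Cre- cells 6 of 8 were lower, where 18.5% of all genes passed and 9.1% passed lower, with a median of -0.96. In each genotype 7 of 8 members had activated arrays below all baseline arrays, as had 19.3% of all genes in Cre+ cells and 17.4% in Cre- cells. Oas2 fell by 2.72 (SE 0.21, limma adjusted p = 8.6e-06), or 6.59-fold, in Cre+ cells and by 2.60 (SE 0.21, limma adjusted p = 1.29e-05), or 6.07-fold, in Cre- cells. Its activated arrays, at most 6.96, lay below all its baseline arrays, at least 7.26. Oasl2 fell by 1.43 (SE 0.33, limma adjusted p = 0.0100) in Cre+ cells and by 1.61 (SE 0.33, limma adjusted p = 0.00587) in Cre- cells. Without the activated arrays numbered 3, Oas2 fell by 2.51 in Cre+ and 2.77 in Cre- cells, and Oasl2 by 1.48 and 2.12 in Cre+ and Cre- cells, and all 4 differences still passed.

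Oas1c fell by 0.95 in Cre+ cells (limma adjusted p = 0.00635) and by 1.04 in Cre- cells (limma adjusted p = 0.00424). Oasl1 fell by 0.72 in Cre+ cells (limma adjusted p = 0.0225) and by 0.86 in Cre- cells (limma adjusted p = 0.0102). Oas1b fell by 1.24 in Cre+ cells (limma adjusted p = 0.0194) and by 1.11 in Cre- cells (limma adjusted p = 0.0355). These 3 members, which overlapped between the genotypes, thus had lower levels after activation in each genotype. Without both arrays numbered 3, Oas1c fell by 0.84 in Cre+ and 0.89 in Cre- cells, and Oasl1 by 0.64 and 1.01 in Cre+ and Cre- cells, all past the threshold. Array 3 held the lowest activated Oas1b reading in both genotypes, and without both arrays numbered 3 Oas1b still passed, at -0.93 in Cre+ cells and -0.71 in Cre- cells. Oas1b did not pass in Cre+ cells when Cre+ activated array 3 (-0.93) or Cre+ baseline array 1 (-1.16) or 2 (-1.21) was left out. In Cre- cells it did not pass without Cre- activated array 3 (-0.71), Cre+ baseline array 1 or 2 (-1.11 each) or any 1 of the Cre- baseline arrays (-1.01 to -1.21). The Oas1b call in Cre- cells was also lost with sex as a covariate (limma adjusted p = 0.0567) and in a fit of nothing but the Cre- arrays (limma adjusted p = 0.0680). Oasl1 did not pass in Cre+ cells without Cre+ activated array 1 (-0.73) or 3 (-0.64) or Cre+ baseline array 1 (-0.76) or 2 (-0.54).

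Oas1g fell by 1.00 in Cre+ cells (limma adjusted p = 0.00269) and by 0.60 in Cre- cells (limma adjusted p = 0.0403), on readings that never exceeded 3.27. The Oas1g call in Cre- cells was lost in 7 of the 12 fits that leave out 1 array, with -0.51 to -0.67 in those fits. The arrays concerned were Cre+ activated 1, Cre- activated 1 and 2, Cre+ baseline 1 and all 3 Cre- baseline arrays. With sex as a covariate it was also lost (-0.52, limma adjusted p = 0.0659), and without both arrays numbered 3 Oas1g passed in each genotype, at -0.997 in Cre+ and -0.69 in Cre- cells. Oas1a fell by 0.97 in Cre+ cells (limma adjusted p = 0.0420), while its difference in Cre- cells was -0.88 (limma adjusted p = 0.0652) with overlapping groups. The Oas1a call in Cre+ cells was lost in 6 of the 12 fits, without Cre+ activated array 2 (-0.85) or 3 (-0.90), Cre- activated array 2 (-0.97), Cre+ baseline array 1 (-0.81) or 3 (-0.94), or Cre- baseline array 2 (-0.97). It was also lost with sex as a covariate (-0.95, limma adjusted p = 0.0724). In Cre- cells Oas1a passed without Cre- activated array 3 (-1.14) or Cre- baseline array 1 (-1.18). Without both activated arrays numbered 3, Oas1a was at -0.90 (limma adjusted p = 0.0596) in Cre+ cells and at -1.14 (limma adjusted p = 0.0267) in Cre- cells. Oas3 passed in neither genotype, at -0.29 (limma adjusted p = 0.389) in Cre+ cells and -0.44 (limma adjusted p = 0.175) in Cre- cells.

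**Figure D3:**
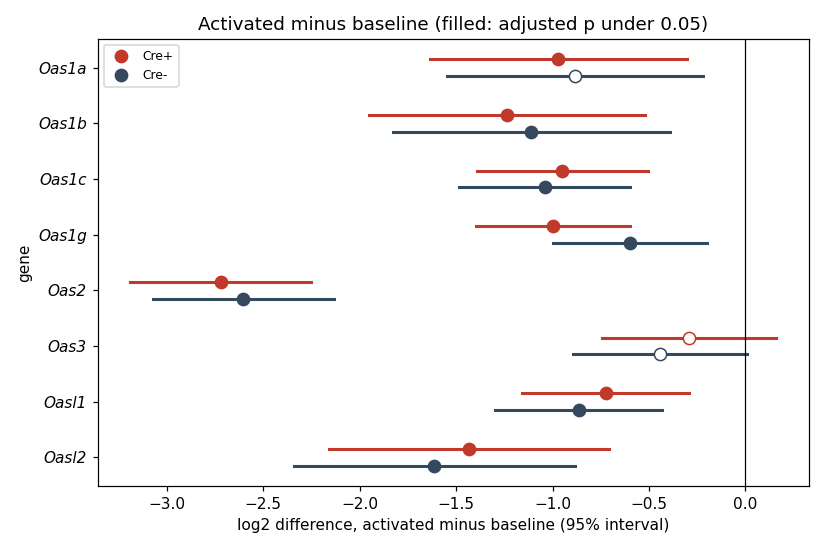
Log2 difference of activated minus baseline (horizontal axis, with 95% interval) for each of the 8 genes, in Cre+ (red) and Cre- (dark blue) cells; filled points passed at a limma adjusted p under 0.05. All points lie left of 0, Oas2 farthest at -2.72 and -2.60, and the intervals of Oas3 reach 0 in both genotypes.

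The size of the response did not differ detectably between the genotypes. None of the 8 members passed the limma test of the difference of responses, where 0.00863% of all genes passed, and none had an unadjusted p under 0.05. For Oas2 the difference of responses, Cre+ minus Cre-, was -0.12 (SE 0.30, 95% interval -0.78 to 0.55), and for Oasl2 it was 0.18 (SE 0.47, 95% interval -0.85 to 1.21). Both intervals allow responses that differ by more than 0.5, so an equal response is not shown. Without the activated arrays numbered 3 the difference of responses was 0.26 (limma adjusted p = 0.967) for Oas2 and 0.63 (limma adjusted p = 0.777) for Oasl2. The order of the 4 groups differed by member. For Oas2 it was Cre+ baseline (9.25 ± 0.15, SD, n = 3), Cre- baseline (7.42 ± 0.17), Cre+ activated (6.53 ± 0.43) and Cre- activated (4.82 ± 0.33), with every neighbour apart. For Oasl2 the order was Cre+ baseline (7.84 ± 0.06), Cre+ activated (6.40 ± 0.18), Cre- baseline (6.27 ± 0.31) and Cre- activated (4.66 ± 0.88), and the middle pair overlapped. Oas1a and Oas3 had the order of Oasl2, with overlap between Cre+ activated and Cre- baseline arrays. Oas1b and Oas1g had the order of Oas2; the genotypes overlapped within each state for Oas1b, and every neighbour was apart for Oas1g. Oas1c and Oasl1 had Cre- above Cre+ means in each state, with overlap between genotypes and none between states.

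Across the 12 arrays the levels of Oas2 and Oasl2 correlated at r = 0.935, and their deviations from the group means at r = 0.583 (n = 12 arrays in 4 groups, so not 12 independent conditions). Oas1b and Oas1c deviated together (r = 0.697), while Oas1c and Oas1g deviated in opposite directions (r = -0.768). Similar genes were sought outside the family, with predicted or unnamed genes left out. Of the rest, the genes whose levels were most like Oas2 were Lat (r = 0.982), which encodes an adaptor of T cell receptor signalling, Nrp1 (0.970), Mx2 (0.965), Sfmbt2 (0.965), Podnl1 (0.961) and Rcbtb2 (0.960). Those most like Oasl2 were Mx2 (0.965), Tor3a (0.964), Tgfbr3 (0.963), Parp12 (0.954), Tmem176b (0.951) and Chst15 (0.951). Mx2, an interferon-induced antiviral GTPase, was in both sets. The deviations from the group means correlated with those of Oas2 at r = 0.905 for Lat, 0.797 for Podnl1, 0.767 for Mx2, 0.464 for Sfmbt2, 0.026 for Rcbtb2 and -0.083 for Nrp1. Rcbtb2 and Nrp1 thus hardly deviated together with Oas2 within groups. With Oasl2 these correlations were 0.917 for Mx2, 0.819 for Tor3a, 0.809 for Chst15, 0.805 for Tgfbr3, 0.747 for Tmem176b and 0.736 for Parp12. These 11 genes were picked for levels like those of Oas2 or Oasl2, so their genotype differences follow in part from that choice. Of the 11, 3 passed by genotype in both states, where 0.729% of all genes passed in activated and 0.552% in baseline cells. Tmem176b was 2.54 higher (limma adjusted p = 0.000780) in activated cells and 1.61 (limma adjusted p = 0.0182) at baseline. Parp12, an interferon-stimulated gene, was 1.53 higher (limma adjusted p = 0.00164) in activated cells and 1.57 (limma adjusted p = 0.00126) at baseline. Nrp1, which encodes the co-receptor neuropilin-1, was 0.92 higher (limma adjusted p = 0.00442) in activated cells and 0.66 (limma adjusted p = 0.0394) at baseline. Podnl1 and Rcbtb2 passed at baseline alone.

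The 4 other Oas1 copies on the array, Oas1d, Oas1e, Oas1f and Oas1h, read between 1.26 and 2.90 on every array. They passed in no comparison (limma), and 0 of 4 had an unadjusted p under 0.05 in any. Of other genes linked to 2-5A, 3 were examined. Abce1, which recycles ribosomes, rose on activation by 0.90 (limma adjusted p = 0.00373) in Cre+ cells and by 0.83 (limma adjusted p = 0.00659) in Cre- cells. Pde12, a phosphodiesterase that degrades 2-5A, rose by 0.72 (limma adjusted p = 0.0449) in Cre+ cells, and its difference in Cre- cells was 0.67 (limma adjusted p = 0.0651). Akap7, which has a 2-5A phosphodiesterase domain in mouse, differed by -0.48 (limma adjusted p = 0.0957) in Cre+ cells and by -0.23 (limma adjusted p = 0.493) in Cre- cells. None of the 3 passed by genotype (limma), and 0 had an unadjusted p under 0.05.

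Among 13 genes of double-stranded RNA sensing, 1 passed by genotype in each state. Ifih1, which encodes the cytosolic sensor MDA5, read 8.26, 8.18 and 8.43 in Cre+ activated cells, against 6.54, 6.61 and 7.33 in Cre- activated cells. It was 1.46 higher (SE 0.18, limma adjusted p = 0.00253). At baseline it was 1.10 higher in Cre+ cells (limma adjusted p = 0.0186). Cre- activated array 3 read above the other Cre- activated arrays, and without both arrays numbered 3 Ifih1 was 1.65 higher in activated cells (limma adjusted p = 9.43e-05). Without these arrays a second gene of the list passed in activated cells, Eif2ak2, which encodes the kinase PKR, at 1.13 (limma adjusted p = 0.0199), against 0.76 (limma adjusted p = 0.818) with them. Of all genes tested, 229 passed in activated cells without these arrays and 169 with them. Ddx58, the RIG-I sensor gene, did not pass by genotype but fell on activation by 2.32 in Cre+ cells and by 2.11 in Cre- cells. None of 13 genes of interferon receptors and ISGF3 passed by genotype in either state (limma; 1 in activated and 2 in baseline cells had an unadjusted p under 0.05). Stat2 differed by 0.55 (limma adjusted p = 0.230) in activated and 0.43 (limma adjusted p = 0.531) in baseline cells, Usp18 by 0.45 and 0.75, Irf7 by 0.18 and 0.25, and Irf9 by 0.00 and 0.36.

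Of 16 interferon genes measured, only Ifng, the gene of the type II interferon, passed by genotype, and it did so in activated cells. It read 8.86, 9.24 and 8.85 in Cre+ activated cells and 7.30, 6.71 and 7.41 in Cre- activated cells, a gap of 1.84 (SE 0.20, limma adjusted p = 0.00108), which was 2.04 (limma adjusted p = 0.00163) without the arrays numbered 3. At baseline, where Oas2 was higher in Cre+ cells, Ifng read between 3.42 and 3.89 and differed by -0.01 (limma adjusted p = 1.00). Ifnb1 read between 1.83 and 2.33 on all arrays and passed in no comparison. The part of these genes in the Oas2 difference was not tested.

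A list of 27 other type I interferon effectors gave a wider view. By genotype 0 of 27 passed in activated and 0 in baseline cells, with 20 and 24 above 0 and medians of 0.12 and 0.28. At an unadjusted p under 0.05 the limma counts were 8 in activated and 5 in baseline cells. The share of all genes at that level is not given here, so these counts are not compared with it. Mx2 was among the larger ones at 0.76 (limma adjusted p = 0.260) and 0.78 (limma adjusted p = 0.305). Without the activated arrays numbered 3, 3 of 27 passed in activated cells, all higher: Mx2 at 1.09 (limma adjusted p = 0.0201), Herc6 at 0.87 (limma adjusted p = 0.0432) and Tor3a at 0.77 (limma adjusted p = 0.0495). Mx2 alone then passed at baseline (0.78, limma adjusted p = 0.0363). In that fit, added for the lists after the data were seen, 229 of all genes tested passed in activated cells and 266 at baseline. The main fit gave 169 and 128. On activation 14 of 27 fell in Cre+ cells and 14 in Cre- cells, with medians of -0.89 and -0.69. Of all genes tested, 10.6% passed lower in Cre+ and 9.1% in Cre- cells. The 4 with the smallest adjusted p were Samd9l, which fell by 2.37, Ddx60 by 2.36, Rtp4 by 1.98 and Cmpk2 by 1.84 in Cre+ cells, and Ddx60 by 2.60, Samd9l by 2.24, Herc6 by 1.78 and Rtp4 by 1.90 in Cre- cells. Ifit1bl1, named here after its values were seen, fell by 2.59 in Cre+ cells, the most of the list, and by 2.45 in Cre- cells. Gbp3 alone rose, by 0.96 in Cre+ and 1.06 in Cre- cells. Irf7, which amplifies the interferon response, fell by 1.70 and 1.63, and Socs1, an inhibitor of cytokine signalling, rose by 1.59 and 1.77 in Cre+ and Cre- cells.

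**Figure D4:**
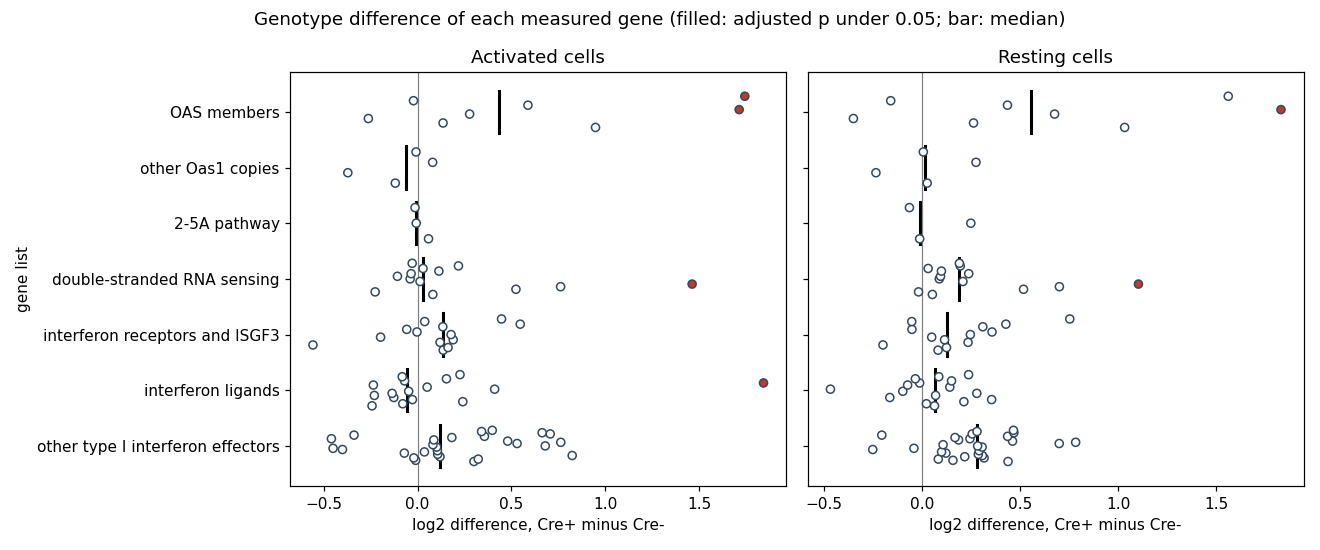
Log2 difference of Cre+ minus Cre- (horizontal axis) for every measured gene of 7 lists, in activated (left) and resting, that is baseline (right) cells; filled points passed at a limma adjusted p under 0.05 and bars are medians. Filled points are Oas2, Oasl2, Ifih1 and Ifng in activated cells and Oas2 and Ifih1 at baseline; the effector medians are 0.12 and 0.28.

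No tested neighbour of either locus passed by genotype. Of the 10 nearest tested genes around the Oas1, Oas2 and Oas3 cluster, 0 passed in either state (limma; 1 in activated and 3 in baseline cells had an unadjusted p under 0.05), with differences between -0.36 and 0.54. Of the 10 around Oasl1 and Oasl2 also 0 passed (limma; 3 and 0 at an unadjusted p under 0.05). Dtx1, the tested gene next to Oas2 on its outer side and a Deltex ubiquitin ligase of the Notch pathway, differed by 0.22 (limma adjusted p = 0.687) in activated and 0.25 (limma adjusted p = 0.649) in baseline cells. It fell on activation by 3.58 in Cre+ cells and by 3.55 in Cre- cells. Hectd4 fell by 0.93 and 0.88 and the ribosomal protein gene Rpl6 rose by 0.85 and 0.92 in Cre+ and Cre- cells.

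RNA of other cell types moved with activation. The mean level of 11 B cell markers ranged from 5.58 to 6.95 in Cre+ activated, 5.12 to 6.30 in Cre- activated, 8.08 to 8.17 in Cre+ baseline and 8.21 to 8.43 in Cre- baseline cells. Of these markers 8 of 11 fell in Cre+ cells and 11 of 11 in Cre- cells, where 10.6% and 9.1% of all genes passed lower. The mean of 7 markers of plasmacytoid dendritic cells, a main source of type I interferon, ranged from 4.43 to 4.83 in Cre+ activated, 4.38 to 4.88 in Cre- activated, 6.24 to 7.39 in Cre+ baseline and 6.55 to 6.77 in Cre- baseline cells, and 4 of 7 fell in each genotype. Of 12 myeloid markers 9 fell in Cre+ and 11 in Cre- cells. In bulk RNA fewer cells of a type and less RNA per cell cannot be told apart, and the part of these cells in the lower Oas and Oasl levels was not tested.

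Between the genotypes none of the markers of other cell types passed in either state (limma). Of these 41 markers 7 in activated and 3 in baseline cells had an unadjusted p under 0.05 (limma), without the share of all genes to compare. Without the activated arrays numbered 3 the B cell marker Ms4a1 passed in activated cells (1.39, limma adjusted p = 0.0491), and the plasmacytoid dendritic cell marker Pacsin1 passed in activated (-0.94, limma adjusted p = 0.0257) and baseline cells (-0.72, limma adjusted p = 0.0345). Of all genes tested, 229 then passed in activated and 266 in baseline cells, against 169 and 128 with all arrays. In activated cells the B cell markers had a median difference of 0.70, with 10 of 11 above 0, and at baseline, where Oas2 differed by 1.83, their median was -0.16, with 1 of 11 above 0. The mean of 7 NK cell markers ranged from 4.50 to 4.68 in Cre+ activated and from 4.04 to 4.21 in Cre- activated cells, without overlap, and from 4.59 to 4.86 in Cre+ baseline and 4.65 to 4.93 in Cre- baseline cells. The median difference of these 7 was 0.19 in activated and 0.03 in baseline cells. The separation of the means in activated cells depended on Eomes, which differed by 1.48 (limma adjusted p = 0.316). Eomes read 9.38, 6.90 and 8.97 on the Cre+ activated arrays and 7.01, 6.79 and 7.01 on the Cre- activated arrays. Gzma differed by 0.78 (limma adjusted p = 0.686) and Klre1 by 0.34 (limma adjusted p = 0.466) in activated cells. There Klra4, Klrb1c, Ncr1 and Nkg7 differed by -0.05 to 0.19. The plasmacytoid dendritic cell markers had medians of 0.14 and 0.19 in activated and baseline cells. The part of these cells in the genotype differences was not tested. The mean of the 9 measured CD4+ T cell markers ranged from 9.50 to 9.92 in Cre+ activated and 9.51 to 9.84 in Cre- activated cells. At baseline it ranged from 10.02 to 10.12 in Cre+ and 9.95 to 10.02 in Cre- cells. On activation 5 of 9 fell in Cre+ cells and 2 of 9 in Cre- cells, where 10.6% and 9.1% of all genes passed lower. None of the 9 passed by genotype.

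**Figure D5:**
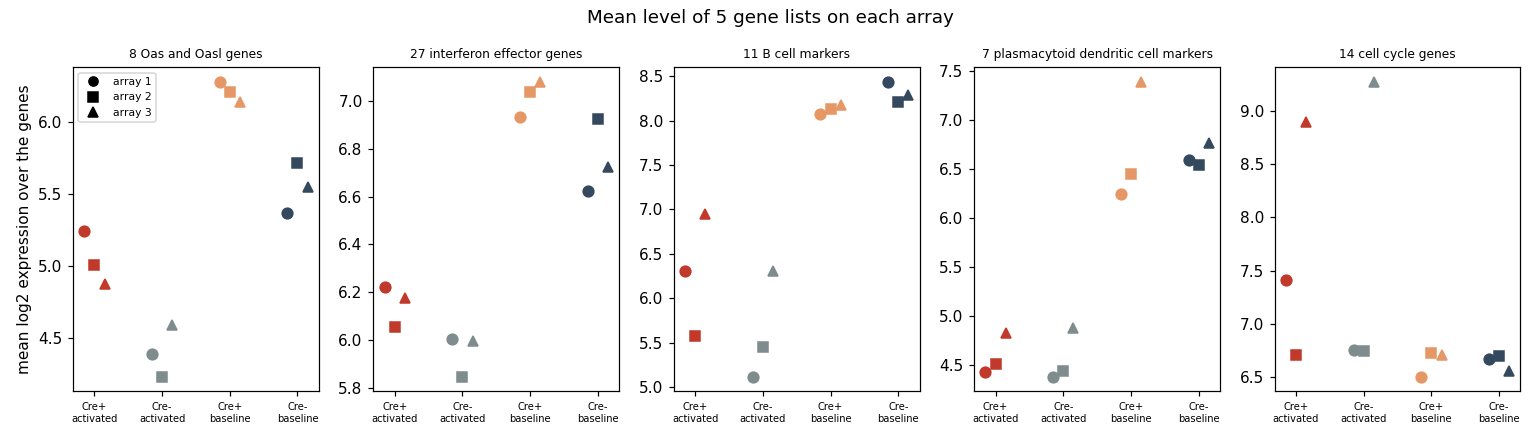
Mean log2 level (vertical axis) of 5 gene lists on each of the 12 arrays, by group; symbols mark arrays 1 to 3, and each panel has its own scale. The family mean lies at 4.87 to 5.24 in Cre+ activated, 4.23 to 4.58 in Cre- activated, 6.14 to 6.27 in Cre+ baseline and 5.37 to 5.71 in Cre- baseline cells, and array 3 of both activated groups stands out in the cell cycle panel.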

How the data were processed

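Gene expression was measured on 12 Mouse Gene 2.0 ST arrays, with 4 labelled groups of 3. The deposited values are log2 expression, 1 row per gene. Per the submitters' processing notes the authors used RMA (affy 1.36.1 under R 2.15.1). The sources used here name no chip definition file or genome build. Of 25206 rows, 23185 named 1 gene and were tested, and 2021 with no gene listed were left out. All 12 arrays entered one fit of the 4 group means in limma 3.58.1 (R 4.3.3). It had no covariates, 8 residual degrees of freedom and 3.55 from the prior, with Benjamini-Hochberg adjustment over all genes. It was tested on simulated data. The family's members and the gene lists were chosen with earlier results of these data known. Named were all members, the other Oas1 copies and 2-5A pathway genes, up to 4 passing genes of each other list, chosen regulators and markers, the 5 nearest tested genes per side and the 6 most correlated genes. The most correlated genes were sought outside the family, with predicted or unnamed genes left out. Alternatives changed the replicate block, moderation, weights, filter, scaling, arrays fitted, fold minimum and sex covariate, or left out arrays; for the gene lists, leaving out the activated arrays numbered 3 was added after seeing the data. The number of arrays limits precision. Promoter windows and gene order are RefSeq GRCm38.p6.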

Additional observations from a re-analysis of the deposited data

How the results depend on the processing

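Across the alternatives, 840 member differences kept direction and call, 54 lost the call, 11 gained one and 32 changed sign. Oas2 passed in activated cells in all settings but the fit of those arrays alone, and at baseline in every setting run. The cause of these changes was not tested. In activated cells the count of members passing by genotype, 2, became 4 with array weights (all 4 higher, with Oas1a and Oas3 added, when 2416 genes passed). It became 0 in the fit of those 6 arrays, when 9 genes passed, and 1 with sex as a covariate, when 112 genes passed. Leaving out 1 array gave 1 to 2. At baseline the count of 1 became 2, with Oasl2 added, with array weights, with only those 6 arrays and without the activated arrays numbered 3, and leaving out 1 array gave 1 to 2. On activation in Cre+ cells 7 became 4 with a mean of at least 5 required, where Oas1a, Oas1g and Oasl1 were not tested, 3 with a 2-fold minimum, and 4 to 7 without 1 array. In Cre- cells the count of 6 lay between 4 and 8; with sex as a covariate it was 4, without Oas1b and Oas1g, and in the fit of those 6 arrays 5, without Oas1b. Sex also ended the Oas1a call in Cre+ cells. The difference of responses gave 0 throughout.

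Sign changes were all of differences that did not pass. Oasl1 between activated cells was 0.11 with array weights, 0.091 with sex and 0.20 without the arrays numbered 3, and -0.10 to 0.12 without 1 array; at baseline that range was -0.34 to 0.0011. Oas1b between activated cells ranged from -0.27 to 0.45. The difference of responses was 0.23 for Oas1a, -0.044 for Oas1c and 0.40 for Oas2 with array weights, and 0.23 for Oas1a and 0.26 for Oas2 without the arrays numbered 3. Without 1 array it ranged from -0.35 to 0.21 for Oas1a, -0.53 to 0.18 for Oas1b, -0.11 to 0.21 for Oas1c, -0.34 to 0.092 for Oas2, -0.033 to 0.39 for Oas3, -0.023 to 0.32 for Oasl1 and -0.12 to 0.68 for Oasl2.

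The main fit did not treat arrays of the same replicate number as pairs. Of 18 same-numbered pairs, 5 had correlated deviations over 0.1, and 6 pairs differed in sex. Between Cre+ and Cre- activated arrays the deviations correlated at r = 0.728 for number 3, 0.571 for number 2 and -0.05 for number 1. Whether arrays of the same number shared a culture or a run was not tested. With the replicate number as a block, 2, 1, 7, 6 and 0 members passed in the 5 comparisons, and 0 of 40 member differences changed call or sign. Centring arrays on their medians or quantile normalization ended the Oas1a call in Cre+ cells (-0.91 each), and centring ended that of Oas1g in Cre- cells (-0.51). Signal over background was not available, so the dim readings of Oas1g limit what its differences show.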
